A study of Mus musculus with 10 samples.

Results

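Antigen presentation genes of the major histocompatibility complex (MHC) were followed through RNA sequencing of LSK cells, the lineage-negative, cKit-positive, Sca1-positive fraction of bone marrow that holds stem and early progenitor cells. They were taken by symbol, 9 of the 25078 genes listed in the count table: the class I heavy chains H2-K1 and H2-D1, their light chain B2m and the peptide transporter subunit Tap1, and on the class II side the chains H2-Aa, H2-Ab1 and H2-Eb1, the invariant chain Cd74 and the transactivator Ciita. One group of 5 mice, CM, carried the knock-in allele Cbfb56M/+ with Mx1-Cre and so expressed Cbfb-MYH11, the fusion of inv(16) leukemia. The other 5 mice, CM/miR-126Δ/Δ, carried in addition miR-126flox/flox, which the same Cre deletes. All 10 mice had been backcrossed to C57BL/6, were 6 to 8 weeks old when dosing began, came from both sexes, and received 7 doses of poly(I:C) at 14 mg/kg every other day; LSK cells were sorted in the preleukemic stage, 6 weeks after the last dose. Mx1-Cre is driven by an interferon-inducible promoter and is not restricted to LSK cells, and both genotypes carried it and received the inducer, so no library here comes from mice without CM, Cre or poly(I:C).

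Class I molecules are found on nearly all nucleated cells and display peptides made inside the cell to CD8+ T cells. Their heavy chain folds with B2m in the endoplasmic reticulum, where the transporter formed by Tap1 and Tap2 brings in peptides cut by the proteasome. Class II molecules pair an alpha with a beta chain, travel with Cd74 to acidic compartments, lose it to proteases and display peptides from outside the cell to CD4+ T cells. They are best known from B cells, dendritic cells and macrophages, and Ciita is the factor that switches their genes on together. Some hematopoietic stem and progenitor cells also carry class II molecules, and interferons raise the genes of both classes.

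The libraries held 23649233 to 33202086 counted reads, and CPM is counts scaled to a common library size of 1e+06. On the plain library total, 3 counts, the lowest level taken as detectable, corresponded to 0.0904 to 0.127 CPM. Unless stated, the other CPM values use library sizes scaled by TMM factors, so this limit shifts slightly on their scale. Mir126a, the precursor of the deleted microRNA, had 4, 5, 0, 2 and 3 reads in the CM mice in order of their numbers and 0 reads in every mouse of the deleted genotype, so CM mouse 3 could not be told from the deleted group by these few reads. A list of 10 LSK marker genes that includes Kit, Ly6a and Cd34 summed to 3184 to 3790 CPM in CM and 3110 to 3815 CPM in CM/miR-126Δ/Δ. Ly6a, the gene of Sca1, was a small part of it, with 57.3 ± 12.1 and 58.5 ± 6.23 CPM. With no other sorted population among the libraries, these levels do not test the purity of the sort. One library stood apart in composition: CM/miR-126Δ/Δ mouse 3 had the highest share of the ribosomal precursor Rn45s, 22.6% of counts against 14.8% to 18.6% in the other 9. The study's cutoffs were a quasi-likelihood F-test of edgeR with p of at most 0.01, a change of at least 1.5-fold and expression in either genotype. Over the whole table they called 54 of the 18747 genes with a count, which is 0.288%, with 36 higher and 18 lower in CM/miR-126Δ/Δ mice. The study itself reported a larger number of genes at these cutoffs, and the reason for the difference was not tested. RPKM is reads per kilobase of exon for a library scaled as for CPM, and 11682 genes that averaged 1 RPKM or more in either genotype are called expressed here. Same-numbered mice of the 2 genotypes deviated from their group means together, and a fit with the mouse number as a block called 115 genes, or 0.613%.

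Per length, B2m and the class I heavy chains stood above every class II gene in all 10 mice, whereas Tap1 lay among the class II genes. In whole sorted samples, fewer cells of a type and less RNA per cell cannot be told apart. B2m had the highest mean over all 10 mice with 1221 RPKM, a level exceeded by few genes since 99.9% of the expressed genes lay lower. H2-K1 followed with 464 RPKM and H2-D1 with 132 RPKM, and among these 3 the order was the same in all 10 mice with no overlap of their ranges. Cd74 (68.0 RPKM), Tap1 (62.3 RPKM) and H2-Ab1 (49.2 RPKM) came next, and their order was not fixed. Cd74 exceeded Tap1 in 4 of the 10 mice, and Tap1 exceeded H2-Ab1 in 7. H2-Ab1 exceeded H2-Aa (40.9 RPKM), and H2-Aa exceeded H2-Eb1 (16.8 RPKM), in all 10 mice although the ranges overlapped between mice. Ciita was lowest, at 1.77 RPKM, above 7.75% of the expressed genes. The class I group made up 0.211% to 0.246% of all gene counts of a library, and the class II group with Ciita 0.0108% to 0.0364%.

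Of the 9 genes, 6 lie in the H2 complex on chromosome 17 of mm10. In order along it they are H2-K1 (chr17:33996012-34000347, minus strand), Tap1 (chr17:34187556-34197225, plus), H2-Ab1 (chr17:34263227-34269418, plus), H2-Aa (chr17:34282744-34287823, minus), H2-Eb1 (chr17:34305867-34316674, plus) and H2-D1 (chr17:35263094-35267497, plus), each given as the span of the whole gene with its introns. B2m (chr2:122147687-122153082), Ciita (chr16:10480072-10527640) and Cd74 (chr18:60803849-60812652) lie elsewhere. The table lists 44 genes with an H2 symbol, of which 13 had no read in any library, among them H2-Q7, H2-Q8, H2-Q9, H2-L and the pseudogene H2-Ea-ps of the alpha chain that C57BL/6 mice lack. Class I heavy chain genes are close copies of each other, and reads that match several of them equally may be counted for none or for the wrong one. Gapdh, a gene with many processed pseudogenes, had only 4.58 CPM in CM mice where Actb had 3804 CPM. The levels of H2-K1, H2-D1 and their relatives are therefore uncertain, and how many reads were lost in this way was not tested.

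The class I heavy chains were the steadiest of the 9 genes. H2-K1, a classical heavy chain, had 857, 741, 793, 818 and 801 CPM in CM mice 1 to 5, and 754, 733, 741, 729 and 742 CPM in the deleted mice in the same order. Every CM/miR-126Δ/Δ mouse lay below its same-numbered CM mouse, but CM mouse 2 was within the range of the other genotype, so the groups overlapped. The means were 802 ± 41.8 and 740 ± 9.51 CPM (SD, n = 5 each), and the fitted log2 change was −0.12 (SE 0.07, 95% interval −0.27 to 0.04, adjusted p = 0.765, edgeR). An exact two-sided permutation test of the 10 values of H2-K1 alone gave p = 0.0238, unadjusted, where 9 genes were tested in this way.

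H2-D1, the second classical heavy chain, had 235, 221, 232, 251 and 244 CPM in CM mice and 223, 217, 223, 231 and 219 CPM in CM/miR-126Δ/Δ mice. It was also lower in 5 of 5 same-numbered mice, with overlapping groups because CM mouse 2 was again the lowest of its genotype. The log2 change was −0.09 (SE 0.05, 95% interval −0.20 to 0.03, adjusted p = 0.765, edgeR), and the exact permutation p was 0.0476, unadjusted. Scaled to the plain library total in place of TMM factors, this p became 0.127. The ratio of H2-K1 to H2-D1, per length, kept between 3.30 and 3.81 in the 10 mice.

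The sequences upstream of these heavy chain genes are shown because both carry the pair of elements through which NF-kappaB and interferon regulatory factors act on class I genes. They come from RefSeq (GRCm38.p6), and the capitals mark a GGGATTCCC site and, after it, a match to AANNGAAA read on the opposite strand. The H2-K1 window lies on the minus strand at chr17:34000410-34000477, 130 to 63 bases before the start of the transcript, and the H2-D1 window on the plus strand at chr17:35262904-35262971, 190 to 123 bases before it.
H2-K1: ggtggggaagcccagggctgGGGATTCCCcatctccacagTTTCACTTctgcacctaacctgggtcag
H2-D1: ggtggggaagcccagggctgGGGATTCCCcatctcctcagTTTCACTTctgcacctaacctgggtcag
The windows were identical at 67 of 68 positions. Of the 32851 promoters in the RefSeq table, 0.301% held GGGATTCCC and 21.3% held AANNGAAA on either strand in the 250 bases before the start, so the first is rare and the second common.

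B2m, the light chain shared by all class I molecules, had 1079, 1029, 1129, 1150 and 1048 CPM in CM mice. In CM/miR-126Δ/Δ mice it had 972, 1018, 1175, 917 and 964 CPM. Mouse 3 of the deleted genotype was the highest of all 10 and mouse 4 the lowest, so the groups overlapped over their whole width, with 4 of 5 same-numbered mice lower. The means were 1087 ± 51.8 and 1009 ± 99.3 CPM, the log2 change was −0.11 (SE 0.09, 95% interval −0.30 to 0.08, adjusted p = 0.765, edgeR) and the exact permutation p was 0.143. The B2m promoter, at chr2:122147530-122147577 on the plus strand of GRCm38.p6, held 1 AANNGAAA match, in capitals, and no GGGATTCCC site. Only that exact form was searched, so whether B2m has another form of NF-kappaB site was not tested.
B2m: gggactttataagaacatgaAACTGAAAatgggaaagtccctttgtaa

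Tap1, one subunit of the transporter that feeds peptides to class I molecules, had 172, 185, 208, 194 and 183 CPM in CM mice and 177, 170, 214, 160 and 175 CPM in CM/miR-126Δ/Δ mice. As for B2m, mouse 3 of the deleted genotype was the highest and mouse 4 the lowest of the 10, and the ratio of Tap1 to B2m stayed between 0.0465 and 0.0535. The log2 change was −0.07 (SE 0.08, 95% interval −0.24 to 0.09, adjusted p = 0.822, edgeR), the exact permutation p was 0.365 and 3 of 5 same-numbered mice were lower. The intervals of all 4 class I genes exclude a 1.5-fold change in either direction.

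The class II genes differed much more between mice of one genotype. H2-Ab1, the beta chain of I-A, had 51.8, 75.0, 48.9, 77.2 and 75.9 CPM in CM mice 1 to 5. In CM/miR-126Δ/Δ mice it had 44.4, 48.6, 38.8, 81.3 and 44.6 CPM. In the deleted genotype, 4 mice lay below every CM mouse, while mouse 4 was the highest of all 10. The means were 65.8 ± 14.1 and 51.5 ± 17.004 CPM and the log2 change was −0.35 (SE 0.19, 95% interval −0.75 to 0.05, adjusted p = 0.765, edgeR), with an exact permutation p of 0.119.

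H2-Aa, the alpha chain that pairs with H2-Ab1, had 36.2, 58.7, 35.2, 59.5 and 68.0 CPM in CM mice and 31.8, 39.5, 21.9, 70.0 and 40.2 CPM in CM/miR-126Δ/Δ mice. Mouse 4 of the deleted genotype was again the highest and mouse 3 the lowest. The log2 change was −0.34 (SE 0.26, 95% interval −0.89 to 0.21, adjusted p = 0.765, edgeR) and the exact permutation p was 0.325. H2-Eb1, the beta chain of I-E, had 25.3, 40.0, 19.4, 37.2 and 41.1 CPM in CM mice and 19.1, 22.6, 11.1, 43.2 and 21.5 CPM in CM/miR-126Δ/Δ mice. Its log2 change was −0.47 (SE 0.29, 95% interval −1.09 to 0.15, adjusted p = 0.765, edgeR), with an exact permutation p of 0.198 and the same highest and lowest mouse. For both genes 4 of 5 same-numbered mice were lower and the groups overlapped.

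Cd74, the invariant chain that guards the class II groove and guides its transport, had 77.1, 132, 74.9, 123 and 158 CPM in CM mice. In CM/miR-126Δ/Δ mice it had 66.0, 78.9, 38.7, 135 and 78.9 CPM. Its highest mouse was CM mouse 5, its second highest CM/miR-126Δ/Δ mouse 4, and its lowest CM/miR-126Δ/Δ mouse 3. The means were 113 ± 36.1 and 79.5 ± 35.1 CPM. The log2 change was −0.51 (SE 0.27, 95% interval −1.09 to 0.07, adjusted p = 0.765, edgeR) and the exact permutation p was 0.183. Ciita, whose protein drives all of these genes, had 6.99, 16.6, 7.20, 12.03 and 14.9 CPM in CM mice and 8.57, 8.36, 6.97, 15.5 and 8.97 CPM in CM/miR-126Δ/Δ mice, resting on 160 to 503 reads per library. Its log2 change was −0.26 (SE 0.26, 95% interval −0.81 to 0.30, adjusted p = 0.804, edgeR), with an exact permutation p of 0.50 and 3 of 5 same-numbered mice lower. The intervals of the 5 class II genes include both no change and a decrease of 1.5-fold.

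**Figure D1:**
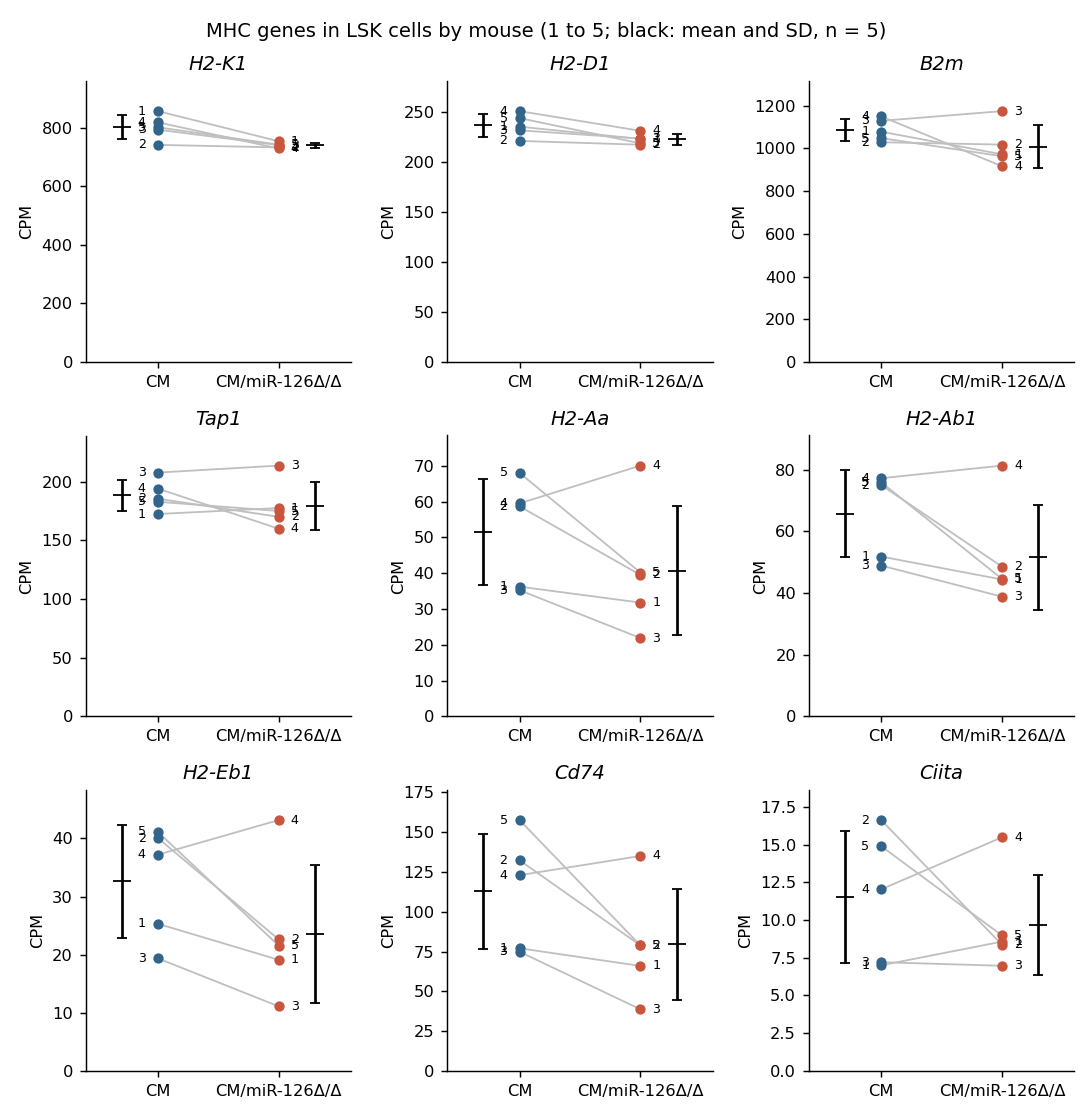
CPM (vertical axis, from 0) of the 9 genes in each mouse, CM in blue and CM/miR-126Δ/Δ in red, with numbers naming the mice, grey lines joining same-numbered mice and black marks giving mean and SD. The class I genes stay within a narrow band, whereas the class II genes spread widely and CM/miR-126Δ/Δ mouse 4 lies at or near the top of each.

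In number of calls, 0 of the 9 genes passed the study's cutoffs, against the 0.288% of all genes tested that did. DESeq2 also called 0 of the 9, and the fit with the mouse number as a block 0, against 0.613% of all genes. All 9 fitted changes were below zero, with a median of −0.26, where the median over all expressed genes was −0.02. None of the 9 separated the genotypes without overlap, and 1.38% of expressed genes did so. At an unadjusted p under 0.05, edgeR placed 0 of the 9 and 1239 of the 18747 genes tested. H2-K1 had an unadjusted p of 0.0464 in the edgeR 4 form of the test and 0.0201 in DESeq2.

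With the mouse number as a block, the intervals of the class II chains and Cd74 were narrower. There 4 of the 9 genes had an unadjusted p of at most 0.01 with a lower level, against 1.39% of all genes. These 4 rose and fell together across the mice, so they do not count as 4 separate results. They were Cd74 (log2 change −0.55, 95% interval −0.86 to −0.25, adjusted p = 0.202), H2-Eb1 (−0.54, −0.85 to −0.23, adjusted p = 0.213), H2-Ab1 (−0.37, −0.59 to −0.15, adjusted p = 0.232) and H2-Aa (−0.39, −0.65 to −0.12, adjusted p = 0.316). None reached 1.5-fold or an adjusted p under 0.05. In the exact test on sign changes of the 5 differences, which cannot go below 0.0625, H2-K1 and H2-D1 reached that value. Cd74, H2-Eb1 and H2-Ab1 gave 0.125 in that test, and H2-Aa gave 0.1875.

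Whether Cd74 and H2-Eb1 were called depended on which mice entered the fit. Without CM/miR-126Δ/Δ mouse 4, Cd74 (log2 change −0.77, adjusted p = 0.354) and H2-Eb1 (−0.80, adjusted p = 0.318) passed the study's cutoffs, and 94 genes or 0.505% did so over the table. In the block without both mice numbered 4, the same 2 genes passed with changes of −0.72 and −0.73, against 0.837% of all genes, and H2-Eb1 had an adjusted p of 0.0478. In the block without both mice numbered 1, Cd74 passed with −0.63, against 0.689%. Without CM/miR-126Δ/Δ mouse 3, by contrast, the unblocked changes of Cd74 and H2-Eb1 were −0.33 and −0.29.

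**Figure D2:**
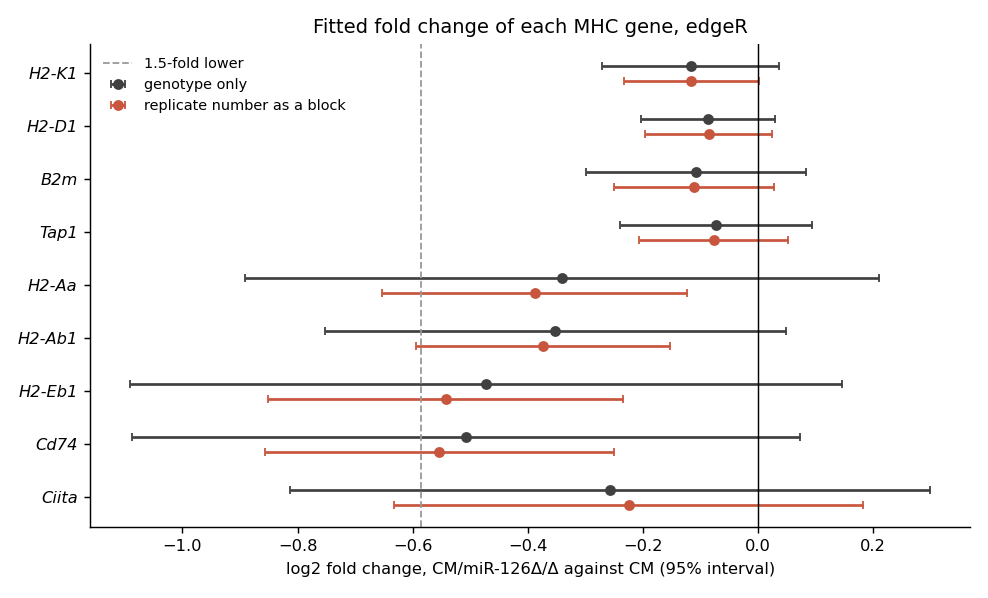
Fitted log2 change (horizontal axis) of CM/miR-126Δ/Δ against CM for each gene, from edgeR without a block (black) and with the mouse number as a block (red), points with 95% intervals. The 4 class I intervals lie to the right of the dashed line at 1.5-fold lower, and the blocked intervals of H2-Aa, H2-Ab1, H2-Eb1 and Cd74 lie below zero.

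The class II genes moved together from mouse to mouse, in both genotypes. Between its lowest and highest mouse, Cd74 spanned 4.07-fold, H2-Eb1 3.89-fold, H2-Aa 3.20-fold, Ciita 2.39-fold and H2-Ab1 2.09-fold. The class I genes spanned only 1.34-fold (Tap1), 1.28-fold (B2m), 1.17-fold (H2-K1) and 1.15-fold (H2-D1). The SD of log2(CPM + 1) within genotypes was 0.57 for H2-Eb1, 0.56 for Cd74, 0.52 for H2-Aa, 0.47 for Ciita and 0.37 for H2-Ab1, which placed these 5 genes above 94.9% to 98.3% of the expressed genes, whose median SD was 0.13. H2-K1 and H2-D1, with SDs of 0.06, were steadier than all but 1.99% of them, and B2m and Tap1 lay in between. H2-Eb1 rested on 255 to 1245 reads per library and Cd74 on 889 to 4775.

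The mice fell in nearly one order for the class II chains and Cd74. Their summed level was 190, 306, 178, 297 and 343 CPM in CM mice and 161, 190, 111, 330 and 185 CPM in CM/miR-126Δ/Δ mice, in the order of their numbers, a 3.10-fold range. CM mice 2, 4 and 5 and CM/miR-126Δ/Δ mouse 4 were the 4 highest for each of H2-Aa, H2-Ab1, H2-Eb1, Cd74 and Ciita, and CM/miR-126Δ/Δ mouse 3 was the lowest for each. The summed class I level varied 1.18-fold, from 2036 to 2413 CPM, and had its lowest value in CM/miR-126Δ/Δ mouse 4, the mouse among the highest in class II. Within the class II group the proportions also shifted in CM/miR-126Δ/Δ mouse 3. Per length, its ratio of Cd74 to H2-Ab1 was 0.84 where the other 9 mice had 1.25 to 1.75, and its ratio of H2-Eb1 to H2-Ab1 was 0.20 where they had 0.28 to 0.39.

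**Figure D3:**
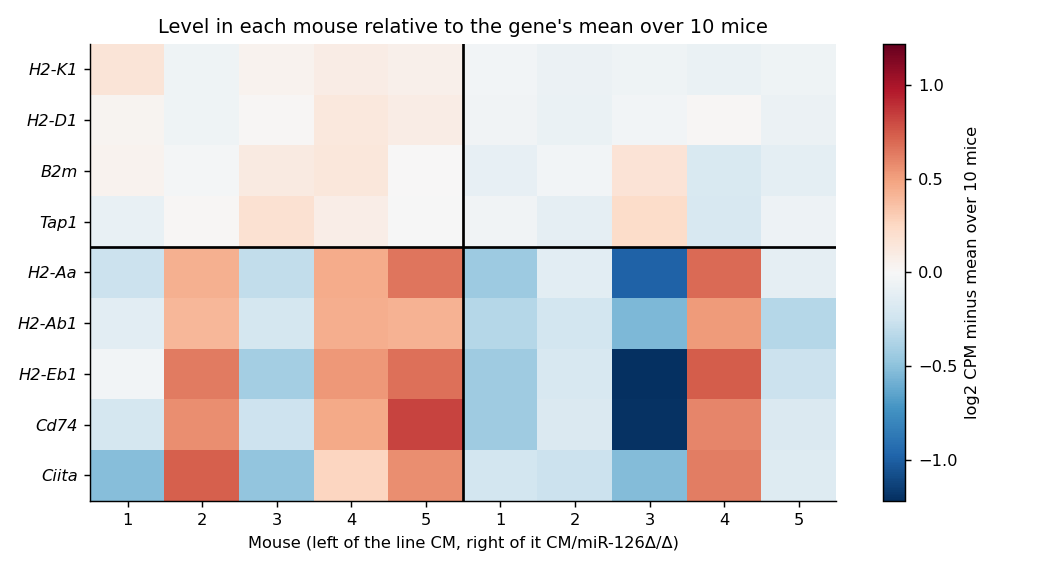
Level of each gene (rows) in each mouse (columns, CM left and CM/miR-126Δ/Δ right of the black line) as log2 CPM minus the gene's mean over the 10 mice, red above and blue below it. The 5 class II rows share one pattern, with CM mice 2, 4 and 5 and CM/miR-126Δ/Δ mouse 4 high and CM/miR-126Δ/Δ mouse 3 low, while the 4 class I rows are pale.

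Class II promoters carry a shared set of boxes, the X and Y boxes, on which the RFX complex, CREB and NF-Y assemble and recruit Ciita. Upstream windows of H2-Aa and H2-Eb1 from RefSeq (GRCm38.p6) are shown because these genes varied together among the mice. The capitals mark the Y box sequence CTGATTGG in both and, in H2-Eb1, the X box core AGCAAC. The H2-Aa window is at chr17:34287847-34287894 on the minus strand and the H2-Eb1 window at chr17:34305755-34305832 on the plus strand, with the Y box starting 51 and 62 bases before the transcript and the X box core of H2-Eb1 at 92.
H2-Aa: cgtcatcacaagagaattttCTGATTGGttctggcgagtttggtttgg
H2-Eb1: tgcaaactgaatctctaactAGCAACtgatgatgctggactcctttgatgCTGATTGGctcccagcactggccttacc
On either strand of the 250 bases before the start, 3.83% of the 32851 promoters held CTGATTGG and 12.2% held AGCAAC. Promoters of 6 of the 9 genes were matched to the start given in the count table, not those of H2-Ab1, Cd74 and Ciita. The Y box letters were also present before H2-D1 and Tap1 and absent from these windows of H2-K1 and B2m, so they did not divide the classes.

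Levels of markers of other cell types were examined because class II genes are strongest in mature antigen-presenting cells, which the lineage depletion and the sort are meant to remove. B cell markers were low but present. Pax5, the factor of B cell identity, had 1.76, 3.93, 0.82, 3.56 and 2.77 CPM in CM mice and 2.26, 3.35, 0.09, 4.35 and 0.04 CPM in CM/miR-126Δ/Δ mice. It was highest in CM/miR-126Δ/Δ mouse 4 and CM mouse 2, both among the high class II mice, and below the level of 3 counts in CM/miR-126Δ/Δ mice 3 and 5, of which mouse 3 was the lowest in class II and mouse 5 was not. Cd79a, a signaling chain of the B cell receptor, ran from 0.04 CPM in CM/miR-126Δ/Δ mouse 3 to 2.97 CPM in mouse 4. Ms4a1 was at 0 in mouse 3 of that genotype but highest in its mice 1 and 2 (1.34 and 1.29 CPM), neither high in class II. In CM mouse 5, which had the highest class II sum, Ms4a1 was only 0.099 CPM. The 7 B cell genes with counts summed to 28.4 to 40.4 CPM in CM and 24.5 to 39.4 CPM in CM/miR-126Δ/Δ mice, most of it Cd79b, and 0 of the 7 were called. The part of B cell RNA in the class II levels was not tested.

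Among 10 dendritic cell markers, 2 were called, both lower, against 0.288% of all genes tested, and in the block the same 2 against 0.613%. Itgax, the integrin chain CD11c, fell in CM/miR-126Δ/Δ mice by the study's cutoffs (log2 change −0.59, SE 0.17, adjusted p = 0.623, edgeR). It had 6.06, 9.71, 8.43, 9.44 and 10.2 CPM in CM mice and 4.67, 4.64, 6.75, 7.56 and 5.48 CPM in CM/miR-126Δ/Δ mice. Siglech, a receptor of plasmacytoid dendritic cells, fell as well (log2 change −0.91, SE 0.27, adjusted p = 0.637, edgeR), with 5.15, 4.99, 10.1, 4.17 and 3.86 CPM against 3.93, 2.95, 3.13, 3.21 and 1.73 CPM. Both passed the study's cutoffs with and without the block, and both were lower in 5 of 5 same-numbered mice with overlapping groups, although neither passed after adjustment over all genes. Clec10a had a log2 change of −0.26, Flt3 −0.05 and Zbtb46 0.35, none of them called. Without Flt3, which LSK cells express themselves, the list summed to 19.6 to 31.1 CPM in CM and 15.9 to 23.7 CPM in CM/miR-126Δ/Δ mice, where the defining markers Xcr1 (means 0.21 and 0.17 CPM) and Zbtb46 (0.64 and 0.82 CPM) were low. Mouse 3 of CM, low in class II, had the highest Siglech of all, and their part in the class II levels was not tested.

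Other lists varied by mouse without a call. Monocyte and macrophage genes summed to 311 to 651 CPM in CM and 337 to 525 CPM in CM/miR-126Δ/Δ mice. Monocytes and macrophages can also carry class II molecules, and 8 of these 9 genes had a fitted change below zero, with a median of −0.33. Csf1r, the receptor of their growth factor, had 93.6 ± 26.1 and 80.4 ± 30.4 CPM (−0.22, and −0.25 with an adjusted p of 0.278 in the block) and Cd68 20.9 ± 5.55 and 17.5 ± 3.76 CPM (−0.26), each lower in 5 of 5 same-numbered mice. The part of these cells in the class II levels was not tested. T and NK cell genes summed to 41.8 to 73.9 and 47.8 to 69.9 CPM, mast cell and basophil genes to 133 to 291 and 135 to 275 CPM, erythroid and megakaryocyte genes to 180 to 222 and 127 to 204 CPM, and endothelial genes to 43.7 to 48.2 and 33.5 to 56.0 CPM. Granulocyte genes reached 449 CPM in CM/miR-126Δ/Δ mouse 4, the mouse with high class II, where the other 4 of its genotype had 49.1 to 134 CPM and CM mice 28.9 to 236 CPM. The part of these cells in the class II levels of that mouse was not tested.

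**Figure D4:**
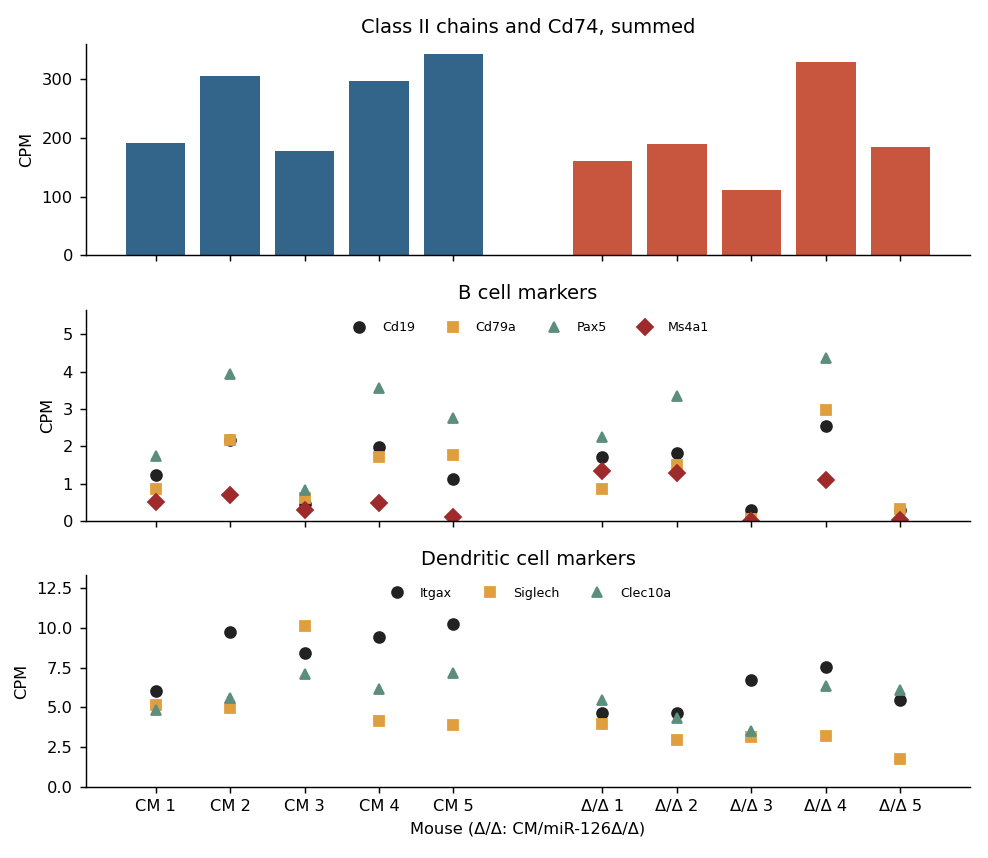
CPM by mouse (vertical axes) of the class II chains and Cd74 summed (bars, from 0), of 4 B cell genes and of 3 dendritic cell genes (points). CM/miR-126Δ/Δ mouse 4 has the highest Pax5 and Cd79a and a high class II sum, mouse 3 has the lowest sum, and Itgax and Siglech are lower across the CM/miR-126Δ/Δ mice than in their same-numbered CM mice.

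The other genes of the class I pathway gave 0 calls, against 0.288% of all genes tested. Of 29 further genes, 28 had counts and 23 were expressed. Of these 23, 20 had a fitted change below zero, with a median of −0.11, where 6719 of the 11682 expressed genes were below zero. Among 16 other heavy chain genes, the largest change of an expressed one was in H2-K2, the neighbor of H2-K1 (log2 change −0.70, SE 0.28, adjusted p = 0.746, edgeR). It had 8.57, 7.77, 6.63, 6.92 and 7.49 CPM in CM mice and 6.42, 4.52, 1.70, 7.09 and 3.29 CPM in CM/miR-126Δ/Δ mice, so mice 1, 2, 3 and 5 of the deleted genotype lay below the CM range. In the block H2-K2 was called (−0.81, adjusted p = 0.248); how many reads it shares with H2-K1 was not tested. Cd1d1, which presents lipids, had −0.19 and H2-T10 −0.16.

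Peptide loading genes were all expressed, and 12 of the 13 had fitted changes below zero. The largest were in Pdia3, a disulfide isomerase of the loading complex (442 ± 29.0 and 385 ± 33.6 CPM, log2 change −0.20, SE 0.08, adjusted p = 0.746, edgeR), in Tap2, the partner of Tap1 (213 ± 46.0 and 186 ± 32.3 CPM, −0.19), and in Psmb8, a subunit of the immunoproteasome (208 ± 16.2 and 184 ± 23.97 CPM, −0.18). Each was lower in 5 of 5 same-numbered mice, and none came near 1.5-fold. Nlrc5, the class I counterpart of Ciita, was the one with a positive change (125 ± 4.90 and 131 ± 9.79 CPM, 0.07).

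Of 21 further class II genes, 18 had counts, 16 were expressed and 0 were called, against 0.288% of all genes tested. Of the 16, 13 had a fitted change below zero, with a median of −0.15. Among the other chains and chaperones all 5 expressed genes had a fitted change below zero. H2-Ob, a chain of the DO protein that restrains peptide exchange, had 77.5 ± 15.6 and 60.9 ± 8.25 CPM (log2 change −0.35, SE 0.12, adjusted p = 0.727, edgeR). It was lower in 5 of 5 same-numbered mice, and its highest mouse, CM mouse 3 with 102 CPM, was a low mouse for the classical chains. H2-DMb2 and H2-DMa, which exchange the Cd74 remnant for peptide, had −0.26 and −0.18.

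Among genes of class II processing and regulation the largest changes were in enzymes of the endosome. Lgmn, an asparaginyl endopeptidase that cuts Cd74 and antigens, had 14.7, 13.3, 12.5, 22.4 and 21.7 CPM in CM mice and 11.2, 8.68, 8.62, 16.5 and 10.6 CPM in CM/miR-126Δ/Δ mice. Mouse 4 was again the highest of the deleted genotype and the groups overlapped, while 5 of 5 same-numbered mice were lower. Its log2 change was −0.60 (SE 0.20, adjusted p = 0.696, edgeR), with the unadjusted p just outside the study's cutoff, and Lgmn was called in the block (−0.60, adjusted p = 0.0719) and by DESeq2. Ifi30, a thiol reductase that opens antigens for class II, had 16.0 ± 4.51 and 11.3 ± 2.12 CPM (−0.51, SE 0.18, adjusted p = 0.736, edgeR). Ctss, the protease that removes the last part of Cd74, had 42.0 ± 9.76 and 34.4 ± 5.00 CPM (−0.29, adjusted p = 0.764, edgeR). The listed factors that bind the X and Y boxes had changes from −0.14 to 0.09, and none was called. They were Rfx5 at 0.09, Rfxap at −0.14, Rfxank at −0.02, Nfya at −0.10, Nfyb at −0.05, Nfyc at 0.08 and Creb1 at 0.08.

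Interferon response genes gave 0 calls, against 0.288% of all genes tested. Of 26 genes, 24 were expressed, 8 of them had a fitted change below zero, and the median was 0.06. In the block 0 were called as well, against 0.613% of all genes. The difference between this list and the antigen presentation lists was not tested. At an unadjusted p of at most 0.01 in the block, 2 of the 26 were lower, against 1.39% of all genes, and 0 were higher. They were Gbp3, a guanylate-binding protein (50.3 ± 5.06 and 43.1 ± 7.44 CPM, −0.23 in the block, adjusted p = 0.191), and Irf8, a factor of dendritic cell and monocyte development (97.1 ± 16.7 and 81.3 ± 32.2 CPM, −0.32 in the block, adjusted p = 0.322). The largest changes were in Ifit3 (1.70 ± 0.79 and 2.62 ± 0.87 CPM, log2 change 0.61, SE 0.31, adjusted p = 0.764, edgeR), Ifi44 (17.5 ± 3.39 and 22.2 ± 6.35 CPM, 0.34) and Isg15 (3.91 ± 1.11 and 4.75 ± 1.16 CPM, 0.28). Irf1, an activator of class I genes, had 119 ± 10.7 and 115 ± 12.05 CPM.

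**Figure D5:**
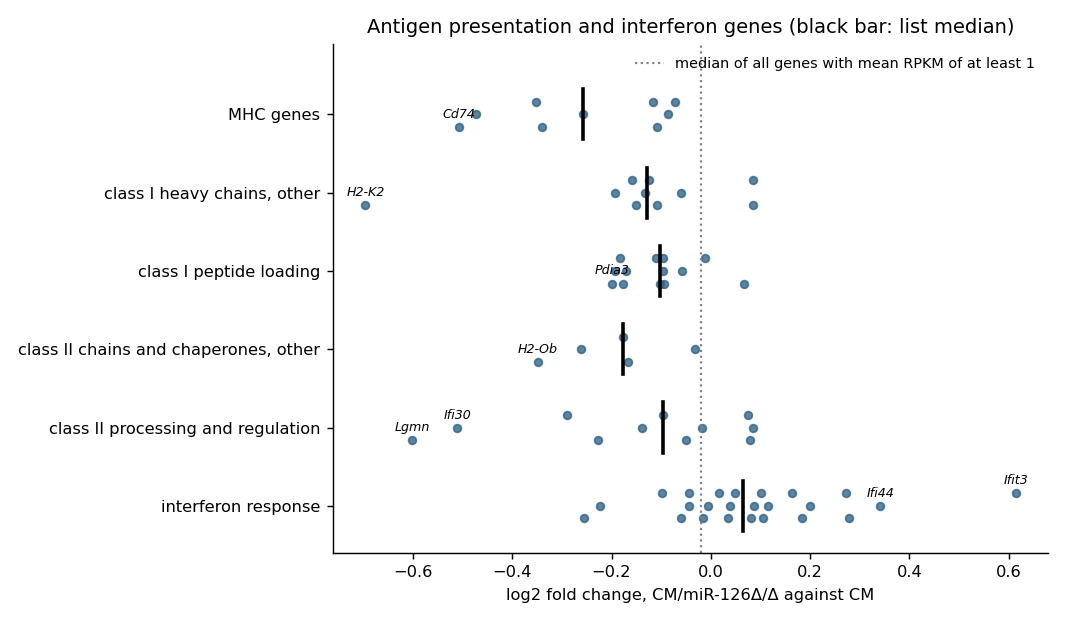
Fitted log2 change (horizontal axis) of single expressed genes (points) in the 9 MHC genes, in 4 further antigen presentation lists and in the interferon list, with a black bar at each list's median and a dotted line at the median of all expressed genes. The antigen presentation lists have medians from −0.26 to −0.10, the interferon list 0.06, and vertical offsets of points carry no meaning.

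The genes most like the class II chains and Cd74 across the 10 mice, by Pearson r of log2(CPM + 1) with their mean z-score and outside the 9 genes, were Snora7a (r = 0.96), 1700012D01Rik (0.94), Igll1 (0.93), Rnu12 (0.93) and Crtc2 (0.92). Ciita itself had r = 0.90, although it was not part of the score. Igll1, a surrogate light chain of early B cells, was low in level, from 0 to 2.76 CPM. The genes most like the class I genes were Mmgt2 (0.94), Aldoart2 (0.91), Mesd (0.91), Eif4ebp1 (0.90) and Zdhhc12 (0.90). These values describe 10 libraries that share depth and composition effects, and with all expressed genes searched they carry no test.

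B2m also serves as a reference transcript, and the study scaled its quantitative PCR of Spred1 and Plk2, targets of miR-126, to it. In the sequencing data B2m against Hprt, another reference, had a log2 count ratio of 3.15 ± 0.16 in CM and 3.10 ± 0.23 in CM/miR-126Δ/Δ mice (difference −0.05, exact permutation p = 0.746, 0.746 after Benjamini-Hochberg adjustment over 3 ratios). The ratio was higher in the deleted genotype in 4 of 5 same-numbered mice, although the mean difference was negative. Spred1 against B2m had −3.10 ± 0.26 and −2.82 ± 0.23, a difference of 0.28 with a higher ratio in 5 of 5 same-numbered mice (exact permutation p = 0.111, adjusted 0.333). Its paired exact p was 0.0625, the smallest that 5 pairs allow. Plk2 against B2m had −6.79 ± 1.38 and −7.94 ± 1.82, a difference of −1.15 that was within the spread between mice (exact permutation p = 0.302, adjusted 0.452), and it ran from −1.61 without CM mouse 3 to −0.57 without CM/miR-126Δ/Δ mouse 3. Plk2 itself had 37.0 CPM in CM mouse 2 and 2.87 to 12.4 CPM in the other CM mice. Without CM mouse 2 the difference was −0.65. The direction for Plk2 was thus opposite to that of the study's PCR, and the reason was not tested. As a gene, Plk2 was not called without the block (log2 change −1.11, adjusted p = 0.765, edgeR) but was called lower in the block (−1.14, adjusted p = 0.28), with 4 of 5 same-numbered mice lower.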

How the data were processed

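The authors depleted ribosomal RNA, made stranded libraries, sequenced single-end reads of 51 bases, aligned them to mm10 with TopHat2 and obtained reads per RefSeq gene through HTSeq 0.6.1p1. The deposited counts are whole reads per gene without normalization; whether counting used strand is not given in the sources used here, so genes on opposite strands may share reads. Genotype and mouse number come from the sample titles. A separate normalized table was not used here.

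Genes with at least 1 count entered the edgeR 4.0.16 model under R 4.3.3 (scaling by TMM, quasi-likelihood F-test, genotype as the only term, two-sided, Benjamini-Hochberg over 18747 genes). Intervals are at 95%. CPM and RPKM were computed from counts, TMM-scaled library size and exon length. Calls follow the study's cutoffs. Single genes were tested by exact permutation of log2(CPM + 1) over the 10 mice with Python 3.11.15. One library per mouse gives n = 5 per genotype. Counts carry no molecular identifiers, so detection limits cover counting error only. The scripts were tested on simulated data.

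Mouse numbers were taken to pair the libraries, because the deviations of same-numbered mice from their genotype means correlated at 0.18 to 0.47 in all 5 pairs; what a number stands for is not stated. The 9 genes and all lists were chosen with earlier results of these data known. Besides the 9, genes were named if called or if among the 3 largest changes of their list. Nlrc5, Rfx5, Rfxap, Rfxank, Nfya, Nfyb, Nfyc, Creb1, Irf1, Gbp3, Irf8 and Plk2 were picked beyond that rule after their values were seen. Single markers of LSK cells, B cells, dendritic cells, monocytes and macrophages beyond that rule were picked in the same way. Protein sequences were not used here, and results for some listed genes are not reported here. Alternatives were RLE factors, DESeq2 1.42.0, filterByExpr, the edgeR 4 form, the block, each mouse left out, Rn45s left out, no RPKM requirement and an adjusted p under 0.05. The block without both mice of each number was added after seeing the data.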

Additional observations from a re-analysis of the deposited data

Results flagged for a closer look

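Within groups of 5 mice, the highest value stood far from the others for 2 genes, both in CM/miR-126Δ/Δ mouse 4. H2-Ab1 had 81.3 CPM there, with the next highest mouse of the genotype at 48.6 CPM, a gap of 0.771 of the whole range. Ciita had 15.5 CPM, with the next at 8.97 CPM and a gap of 0.764, where 0.71 is the critical value for 5 samples. Of the 18 groups examined, 0.9 would be expected to pass by chance. H2-Aa, H2-Eb1 and Cd74 in the same mouse did not pass, because the other mice of the genotype were more spread out.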

How the results depend on the processing

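Of the 9 genes, 0 were called under RLE factors, DESeq2, filterByExpr, the edgeR 4 form, the block, Rn45s left out, no RPKM requirement or an adjusted p under 0.05. Leaving out mice, singly or as pairs in the block, gave 0 to 2, and no fitted change of the 9 genes turned direction in any alternative, but their sizes moved. With single mice left out, the log2 change ran from −0.61 to −0.18 for H2-Aa, −0.56 to −0.27 for H2-Ab1, −0.80 to −0.29 for H2-Eb1, −0.77 to −0.33 for Cd74 and −0.48 to −0.09 for Ciita, with the larger decrease without CM/miR-126Δ/Δ mouse 4, and from −0.17 to −0.06 for B2m and −0.14 to −0.02 for Tap1, with the smaller one without that mouse. Over the whole table, 115 genes were called in the replicate block, 111 without the RPKM requirement and 2 at an adjusted p under 0.05 in place of 54, and 33 to 155 when mice were left out, with 33 without CM/miR-126Δ/Δ mouse 5, 85 without mouse 1, 94 without mouse 4 and 128 without CM mouse 3. Other class I genes called were 1 in the replicate block and 0 to 1 with mice left out. Other class II genes called were 1 in the replicate block, 1 by DESeq2 and 0 to 2 with mice left out, being Lgmn or Ifi30. Interferon genes called were 0 to 1 with mice left out, Ifit3 in the block without the mice numbered 5. The replicate block changed no other call of the 9 genes or of these lists. On sign changes of paired differences (replicate block), H2-K1 (−0.12) and H2-D1 (−0.086) each gave p = 0.0625, the smallest this exact test allows, and on the plain library total H2-D1 (−0.10) gave an exact p of 0.127. The difference of B2m against Hprt ran from −0.12 to 0.02 with mice left out, and it was 0.022 without CM/miR-126Δ/Δ mouse 4, where its sign turned. The cause was not tested. With 5 mice per genotype and the spread of the class II genes, a decrease of 1.5-fold could be neither shown nor excluded. This held with and without the block in the fits of all 10 mice, since every blocked class II interval also included such a decrease.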

Other observations

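Genes of stem cell identity in the LSK list had fitted changes above zero. Hlf had 581 ± 54.9 CPM in CM mice against 718 ± 89.7 CPM in the deleted genotype (log2 change 0.31, adjusted p = 0.661, edgeR), Mecom 106 ± 16.5 and 125 ± 15.2 CPM (0.24, adjusted p = 0.748, edgeR) and Meis1 327 ± 25.2 and 372 ± 29.4 CPM (0.19, adjusted p = 0.746, edgeR). Each was higher in 5 of 5 same-numbered mice, and none reached 1.5-fold. Among monocyte genes, Fcgr1 had a log2 change of −0.59 and Ccr2 −0.46, and among granulocyte genes the largest changes were in Camp (1.14), S100a9 (0.93) and S100a8 (0.92), where CM/miR-126Δ/Δ mouse 4 held 72.2 CPM of S100a8 and the other 4 at most 5.85 CPM. None of these 5 genes was called.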
